A study of Mus musculus with 3 samples.

Results

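The interferon regulatory factors (IRFs) studied here are 8 genes of the mouse IRF family, *Irf1*, *Irf2*, *Irf3*, *Irf4*, *Irf5*, *Irf7*, *Irf8* and *Irf9*. They were taken as the rows of the deposited gene table whose symbol was one of these names, and they are 8 of the 32285 genes in that table. RNA of single bone marrow derived macrophages (BMDMs) was sequenced from 1 library each of PBS-treated cells (Ctrl), collected at 4 hours, and of cells given purified *Borrelia burgdorferi* lipoproteins (*Bb*LP, 1 µg/mL), either LP1 after 1 hour or LP4 after 4 hours. All cells came from female C3H/HeN mice of 6 to 8 weeks, grown out of bone marrow in medium conditioned by L929 cells. Wells from 3 mice went into each library as a pool, which leaves 1 library per condition, and differences between conditions were described without a test. No library of PBS-treated cells was made at 1 hour. In LP1 over Ctrl, the lipoproteins and the time of collection therefore cannot be told apart.

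IRFs are transcription factors that share a DNA-binding domain and recognise repeats of GAAA, known as the interferon-stimulated response element (ISRE). IRF3, IRF5 and IRF7 lie idle in the cytoplasm until kinases downstream of Toll-like receptors and nucleic acid sensors phosphorylate them. IRF9 works with STAT2 to carry the signal of type I interferon receptors. IRF1 and IRF2 bind the same sites, IRF1 mostly as an activator and IRF2 mostly as a repressor. IRF4 and IRF8 bind DNA with partners such as PU.1 and BATF and shape macrophage and dendritic cell identity. mRNA levels of these genes say nothing about phosphorylation, entry into the nucleus or activity of the proteins.

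The 3 libraries held 6123, 5119 and 5039 barcodes, of which 6071, 5065 and 4670 cells passed the limits (over 500 unique molecular identifiers [UMIs], over 500 genes and under 5% mitochondrial UMIs). The mitochondrial limit removed 18, 43 and 273 barcodes, and 4 to 10 barcode sequences occurred in both libraries of a pair. The paper states the same limits but reports fewer cells than the 15806 kept here. The source of that difference is not known, so the cells are not the paper's own set. The kept cells carried 35688939 (Ctrl), 52475723 (LP1) and 61402275 (LP4) UMIs, with a median of 5133, 9343 and 11784 UMIs per cell. Of the macrophage markers, *Lyz2*, *Csf1r* and *Adgre1* were abundant in every library, and the 8 markers summed to between 10638 and 11916 UMIs per 1000000 UMIs of the library (CPM). The B cell, T or NK cell, mast cell and stromal lists each summed to at most 19.7 CPM, the dendritic cell list to 151 to 154 CPM, the plasmacytoid dendritic cell list to 184 to 428 CPM (of which *Tcf4* gave 179 to 425), the neutrophil list to 291 to 564 CPM and the cycling list to 527 to 631 CPM. *Flt3*, a defining dendritic cell gene, had 8 to 12 UMIs per library.

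The promoters of the family were searched for the letters that interferon, STAT and NF-κB signals are known to act through. RefSeq windows on GRCm38.p6, from 250 bases before to 50 bases after a transcription start, existed for 8 of the 8 genes, in 11 windows. Both strands were read for the ISRE core (GAAA, any 2 bases, GAAA), for the STAT-binding GAS element TTCNNNGAA and for the NF-κB consensus. Among all 32851 windows of that length, the ISRE core stood in 3.44%, the GAS letters in 8.3% and the NF-κB consensus in 8.46%. The ISRE core was found for 1 IRF, GAS letters for 3 and the NF-κB consensus for 2. None of the 7 matches overlapped another (overlapping matches 0). The 3 windows with a match are shown as the 250 bases upstream of the start, 5′ to 3′ on the gene's strand, with the matched letters in capitals.
*Irf1*, chr11:53769764-53770013, plus strand: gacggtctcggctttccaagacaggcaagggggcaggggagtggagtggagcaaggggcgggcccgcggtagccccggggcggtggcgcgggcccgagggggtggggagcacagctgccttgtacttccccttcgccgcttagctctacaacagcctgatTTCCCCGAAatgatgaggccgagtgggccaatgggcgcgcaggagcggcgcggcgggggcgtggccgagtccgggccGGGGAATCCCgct
*Irf2*, chr8:46739495-46739744, plus strand: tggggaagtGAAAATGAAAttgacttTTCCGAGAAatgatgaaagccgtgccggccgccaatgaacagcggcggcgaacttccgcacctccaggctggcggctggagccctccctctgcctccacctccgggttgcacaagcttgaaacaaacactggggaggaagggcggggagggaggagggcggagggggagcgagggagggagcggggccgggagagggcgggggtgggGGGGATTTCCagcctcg
*Irf8*, chr8:120736108-120736357, plus strand: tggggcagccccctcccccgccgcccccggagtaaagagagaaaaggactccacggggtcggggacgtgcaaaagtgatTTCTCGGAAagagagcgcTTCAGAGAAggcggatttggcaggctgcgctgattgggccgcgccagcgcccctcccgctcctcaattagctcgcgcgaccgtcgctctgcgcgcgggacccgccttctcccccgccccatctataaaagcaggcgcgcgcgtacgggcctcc
The *Irf1* window had GAS letters (TTCCCCGAA) that began 90 bases before the start and NF-κB letters (GGGGAATCCC) that began 13 bases before it. The *Irf2* window had the ISRE core (GAAAATGAAA) at 241 bases, GAS letters (TTCCGAGAA) at 224 bases and NF-κB letters (GGGGATTTCC) at 17 bases before the start. The first *Irf8* window had a pair of GAS matches, TTCTCGGAA at 171 and TTCAGAGAA at 153 bases before the start. In the windows of *Irf3*, *Irf4*, *Irf5*, *Irf7* and *Irf9* these letters were not present, which says nothing about sites elsewhere. A match is a description of the sequence, and binding was not measured.

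The genes lie on GRCm38, the build also called mm10, at positions given by GENCODE vM21. *Irf1* (ENSMUSG00000018899) spans chromosome 11, 53770014 to 53778374, and *Irf2* (ENSMUSG00000031627) chromosome 8, 46739732 to 46847458. *Irf8* (ENSMUSG00000041515) lies further along chromosome 8, 120736358 to 120756694. *Irf3* (ENSMUSG00000003184, 44997648 to 45002848) and *Irf7* (ENSMUSG00000025498, 141262706 to 141266481) are on chromosome 7. *Irf4* (ENSMUSG00000021356) is on chromosome 13, 30749226 to 30766976, *Irf5* (ENSMUSG00000029771) on chromosome 6, 29526625 to 29541871, and *Irf9* (ENSMUSG00000002325) on chromosome 14, 55603571 to 55610030. On the same strand, *Irf8* lies within the long gene model *Gm20388*, which is no row of the gene table, and *Irf9* shares 123 bases with *Rnf31*, which had 430 (Ctrl), 505 (LP1) and 1629 (LP4) UMIs. On the opposite strand, *Irf3* shares 1065 bases with *Bcl2l12*, *Irf5* 1045 bases with *Tnpo3* and *Irf7* 45 bases with *Phrf1*. There, too, *Irf1* shares 907 bases with *Gm17334*. *Irf2* shares 1723 bases with *Gm45479*, 877 with *Gm45481* and 433 with *Gm31172*. The strand setting of the counting is not given in the sources used here, and a share of such reads in the counts was not tested.

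The makeup of the family differed between the libraries more than its sum. The 8 genes together had 700 CPM in Ctrl, 657 CPM in LP1 and 818 CPM in LP4. UMIs are counted once per transcript from its 3′ end, so these CPM were not divided by gene length. Whether intronic reads were counted is not given, and *Irf2* spans 107727 bases beside 3776 for *Irf7*. An effect of gene span on the shares and order of the IRFs was not tested. *Irf1* was the most abundant IRF in each library, with 24.2% to 25.8% of the family's UMIs. *Irf2* supplied 14.9% in Ctrl, 11.2% in LP1 and 22.8% in LP4, whereas *Irf8* supplied 20.7%, 22.3% and 12.8%. In Ctrl the order of CPM ran *Irf1*, *Irf8*, *Irf5*, *Irf2*, *Irf7*, *Irf9*, *Irf3*, *Irf4*, and only the neighbours *Irf2* and *Irf7* did not differ beyond counting error (log2 ratio 0.03, 95% interval -0.04 to 0.10). In LP1 the order was *Irf1*, *Irf5*, *Irf8*, *Irf7*, *Irf2*, *Irf9*, *Irf4*, *Irf3*, with *Irf5* and *Irf8* not told apart. In LP4 it was *Irf1*, *Irf2*, *Irf5*, *Irf7*, *Irf8*, *Irf9*, *Irf4*, *Irf3*, with *Irf5* and *Irf7* not told apart. *Irf2* thus moved from behind *Irf7* in LP1 to next after *Irf1* in LP4.

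**Figure D1:**
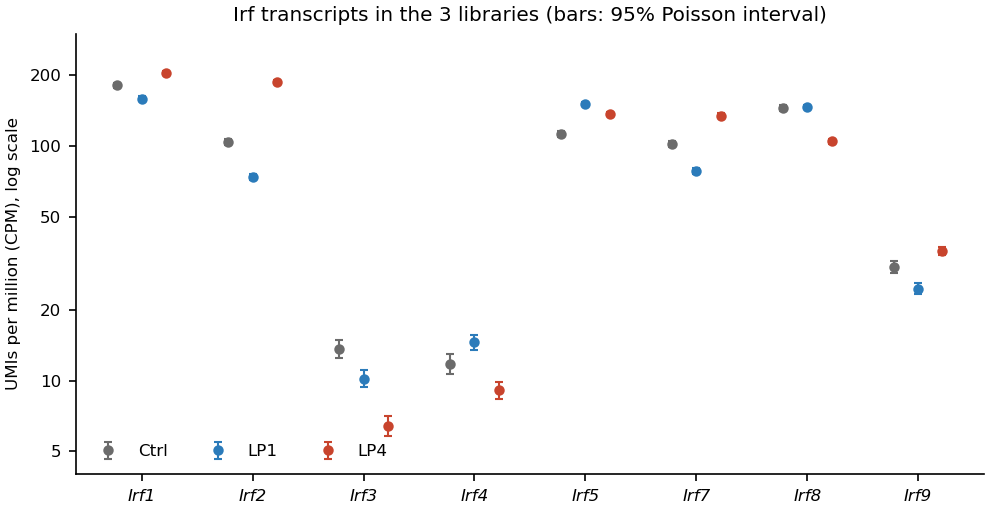
CPM of the 8 IRF genes (log axis) in the Ctrl, LP1 and LP4 libraries, with exact Poisson 95% intervals that cover counting error only. *Irf2* goes from 73.6 CPM in LP1 to 187 CPM in LP4, and *Irf3* steps down from 13.7 to 10.2 to 6.43 CPM.

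*Irf1*, the activator of the pair that also induces MHC class I and GTPase genes, differed little between the libraries. It had 6451 UMIs or 181 CPM in Ctrl (exact Poisson 95% interval 176 to 185), 159 CPM in LP1 (156 to 162) and 205 CPM in LP4 (201 to 208). LP1 was the low library and LP4 the high one, and the 3 intervals did not overlap. The log2 ratio was -0.19 for LP1 over Ctrl (-0.23 to -0.14), 0.18 for LP4 over Ctrl (0.14 to 0.22) and 0.36 for LP4 over LP1 (0.32 to 0.40). All intervals here cover counting error only, since separate cultures were not sequenced apart.

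*Irf2*, the repressor that competes with IRF1, had the widest swing upward of the family. It had 104 CPM in Ctrl (101 to 107), 73.6 CPM in LP1 (71.3 to 75.9) and 187 CPM in LP4 (183 to 190). LP1 was below Ctrl, and LP4 was above both. The log2 ratio was -0.50 for LP1 over Ctrl (-0.56 to -0.43), 0.84 for LP4 over Ctrl (0.79 to 0.90) and 1.34 for LP4 over LP1 (1.29 to 1.40), which is 2.54-fold. *Irf2* therefore moved further than *Irf1* in the same direction in each comparison.

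*Irf3*, *Irf7* and *Irf5* encode the factors that sensor signalling activates. *Irf3*, present before infection in most cell types, was scarce, with 13.7 CPM in Ctrl (12.5 to 15.0), 10.2 CPM in LP1 (9.37 to 11.1) and 6.43 CPM in LP4 (5.81 to 7.1). Its level was lower at each time, with a log2 ratio of -0.42 for LP1 over Ctrl (-0.60 to -0.24) and -1.09 for LP4 over Ctrl (-1.29 to -0.90). Only 395 to 536 UMIs per library stand behind these values. Counted per 1000 cells instead, *Irf3* had 80.5 (Ctrl), 106 (LP1) and 84.6 (LP4) UMIs, in libraries whose total UMIs per cell differed as given above. *Irf7*, the amplifier of type I interferon, had 102 CPM in Ctrl (98.6 to 105), 78.0 CPM in LP1 (75.6 to 80.4) and 134 CPM in LP4 (132 to 137). Like *Irf2*, it was lowest in LP1 and highest in LP4, with log2 ratios of -0.39 for LP1 over Ctrl, 0.40 for LP4 over Ctrl (0.34 to 0.46) and 0.79 for LP4 over LP1 (0.73 to 0.84). *Irf5*, which drives inflammatory cytokine genes after Toll-like receptor signals, had 112 CPM in Ctrl (109 to 116), 151 CPM in LP1 (147 to 154) and 137 CPM in LP4 (134 to 140). It was the IRF with the largest ratio upward at 1 hour, 0.43 on the log2 scale (0.37 to 0.48), and remained above Ctrl at 4 hours by 0.29 (0.23 to 0.34).

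*Irf9*, the DNA-binding subunit of ISGF3, had 30.5 CPM in Ctrl (28.7 to 32.4), 24.7 CPM in LP1 (23.4 to 26.1) and 35.7 CPM in LP4 (34.2 to 37.2). The log2 ratio was -0.31 for LP1 over Ctrl, 0.23 for LP4 over Ctrl (0.12 to 0.33) and 0.53 for LP4 over LP1. By CPM, *Irf1*, *Irf2*, *Irf7* and *Irf9* thus shared one shape, lowest in LP1 and highest in LP4. Counted per 1000 cells, without regard to depth, each of them was lowest in Ctrl. *Irf2* then had 611 (Ctrl), 762 (LP1) and 2455 (LP4) UMIs, and *Irf9* had 179, 256 and 469. *Irf8*, the lineage factor of macrophages, had 145 CPM in Ctrl (141 to 149), 146 CPM in LP1 (143 to 149) and 105 CPM in LP4 (102 to 107). By CPM, Ctrl and LP1 did not differ beyond counting error, with a log2 ratio of 0.01 (-0.04 to 0.06). The scalings described below, TMM and the median of ratios, gave 0.08 and 0.09, above that interval. LP4 was below Ctrl by a log2 ratio of -0.47 (-0.52 to -0.42). *Irf4*, linked to alternative activation and to dendritic cells, had 11.8 CPM in Ctrl (10.7 to 12.9), 14.6 CPM in LP1 (13.5 to 15.6) and 9.09 CPM in LP4 (8.35 to 9.87). It was highest in LP1 and lowest in LP4, with log2 ratios of 0.31 (0.13 to 0.48) and -0.37 (-0.56 to -0.19) over Ctrl. Per 1000 cells, *Irf8* had 853 (Ctrl), 1514 (LP1) and 1377 (LP4) UMIs, and *Irf4* had 69.2, 151 and 119. Whether the unequal UMIs per cell reflect the RNA content of the cells or the sequencing was not tested.

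The IRFs were set against all genes. A gene entered this comparison with 10 CPM or more in any library. Of these 8103 genes, which include all 8 IRFs, 0.765% were higher and 0.506% lower in LP1 than in Ctrl by at least 2-fold, and of the IRFs 0 were in each direction. At 1.5-fold the shares were 4.23% and 2.83%, and again 0 IRFs. For LP4 over Ctrl, 10.5% of genes were higher and 9.95% lower by at least 2-fold, against 0 IRFs higher and 1 lower, *Irf3*. At 1.5-fold the shares were 20% and 23.1%, with 1 IRF higher, *Irf2*, and 1 lower, *Irf3*. For LP4 over LP1, 8.59% of genes were higher and 7.75% lower by at least 2-fold, against 1 IRF higher, *Irf2*, and 0 lower. At 1.5-fold the shares were 16.3% and 18.5%, against 2 IRFs higher, *Irf2* and *Irf7*, and 2 lower, *Irf3* and *Irf4*. Counts of 0 to 2 of 8 do not stand apart from these shares. The 3 comparisons share libraries and are not independent of each other.

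The median log2 ratio of the 8 IRFs was -0.25 for LP1 over Ctrl, 0.20 for LP4 over Ctrl and 0.11 for LP4 over LP1, beside -0.02, -0.08 and -0.07 for all genes. Scaling by TMM raised every LP4 over Ctrl log2 ratio by 0.17, and the median of ratios raised it by 0.21, so the median of all genes moved from -0.08 to 0.09 or 0.13. Under both, *Irf2* crossed 2-fold (1.01 and 1.05) and *Irf3* no longer did (-0.92 and -0.88), so the 1 IRF past 2-fold at 4 hours depends on the scaling. In rank among all genes, which scaling leaves as it is, *Irf2* stood at the 87.0th percentile of the LP4 over Ctrl ratios and *Irf3* at the 8.27th. No IRF changed the direction of its ratio under either scaling.

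**Figure D2:**
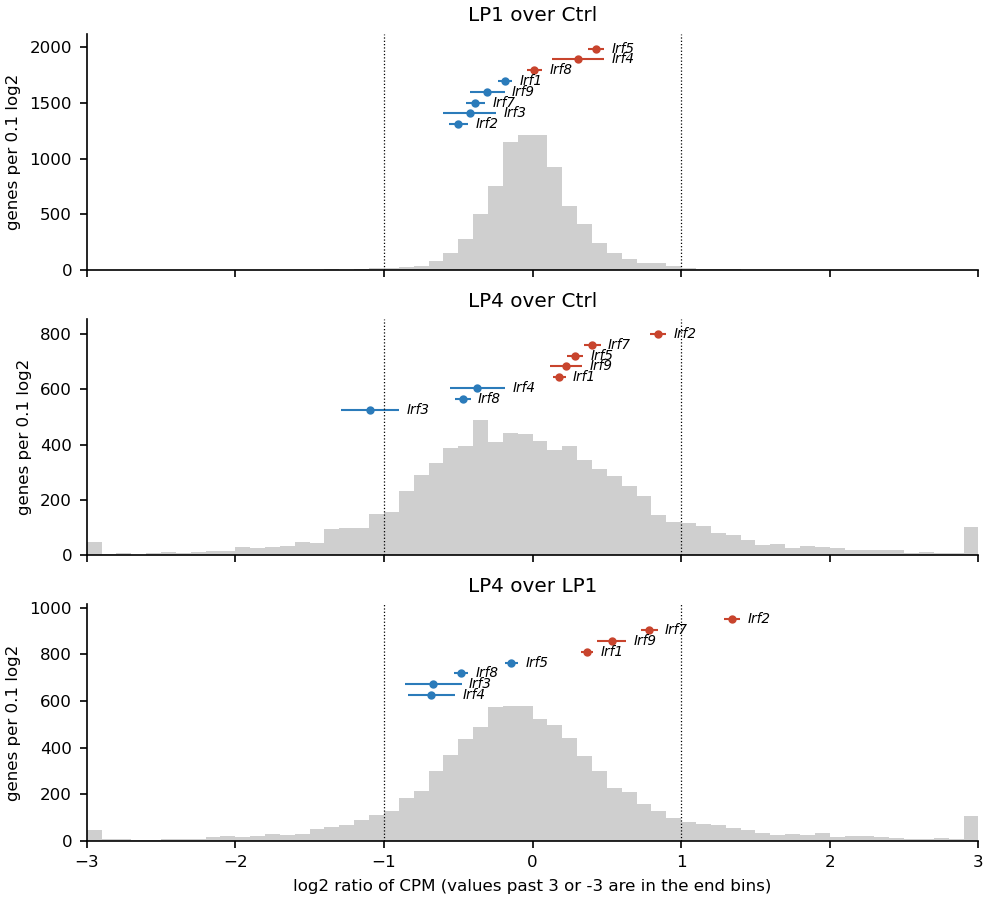
Log2 ratios of CPM for the 3 pairs of libraries. Grey bars count the 8103 genes per 0.1 log2, points are the 8 IRFs with exact 95% counting intervals (red above 0, blue below, height only for legibility), and dotted lines mark 2-fold. At 1 hour all IRFs lie between -0.50 and 0.43, and at 4 hours over Ctrl between -1.09 and 0.84.

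Many genes around the IRFs had larger ratios than the IRFs. The lists below were written out from known pathway roles with earlier results of these libraries known, and the study itself names several of their genes, such as *Gbp2*, *Gbp5*, *Ifit1*, *Isg15* and *Rsad2*, for these cells, so their direction is no independent evidence. Over all lists, 54 of the 98 genes that reached 10 CPM were higher and 4 lower by at least 2-fold in LP4 than in Ctrl, beside the 10.5% and 9.95% of all genes. In LP1, 3 list genes were higher by that measure: *Bst2* (log2 ratio 1.23), the STAT inhibitor *Socs1* (1.20) and the AP-1 gene *Junb* (1.02). *Nos2* was lower in LP1 (log2 ratio -1.36), from 14 UMIs in Ctrl to 8 in LP1.

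Upstream of the IRFs, 8 of 11 sensor and adaptor genes were higher in LP4 by 2-fold and 0 lower, with a median log2 ratio of 1.30. They were led by *Ifih1*, which encodes the RNA sensor MDA5 (2.24), the Toll-like receptor adaptor *Myd88* (1.92), the DNA sensor *Cgas* (1.84) and *Ddx58*, which encodes RIG-I (1.78). *Tlr2*, the receptor for bacterial lipoproteins, stood at 107, 119 and 309 CPM along the series Ctrl, LP1, LP4. Of 12 kinase, ubiquitin ligase and scaffold genes that act on IRFs, 1 was higher, the TBK1 scaffold *Azi2* (1.72), and 0 lower, with a median of 0.18. *Tbk1* and *Ikbke*, whose kinases phosphorylate IRF3 and IRF7, had log2 ratios of 0.23 and 0.72. Of the interferons, *Ifnb1* had 2 (Ctrl), 10 (LP1) and 96 (LP4) UMIs, and *Ifna2* and *Ifna4* had 0 in every library, which allows at most 0.0841 CPM in Ctrl and 0.0489 CPM in LP4 (3 counts). The 4 receptor genes stayed within 2-fold.

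Among genes that work with IRF9, *Stat2* went from 29.1 CPM (Ctrl) and 24.0 CPM (LP1) to 256 CPM (LP4), so LP4 over Ctrl was 3.14. The kinase gene *Jak2* (2.01) and *Stat3* (1.86) were also past 2-fold, while *Tyk2* (1.00, just under 2-fold) and *Jak1* (0.32) were not. *Irf9* itself had the ratio of 0.23 given above, so in LP4 it stood at 35.7 CPM beside 256 CPM for *Stat2*, its partner in the same complex.

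Of 7 genes for DNA-binding partners of IRF4 and IRF8, 3 were higher, *Batf* (3.20), *Batf2* (2.26) and *Ikzf1* (2.23), and 1 lower, *Jun* (-3.15). *Spi1*, which encodes PU.1, had a ratio of -0.15. Of 12 genes that restrain IRF or interferon signalling, 5 were higher and 0 lower. They were *Socs1* (5.75), *Socs3* (3.63), *Usp18* (3.4), *Trim21* (3.04) and *Trim30a* (1.77). The IRF2-binding corepressor genes *Irf2bp1*, *Irf2bp2* and *Irf2bpl* had ratios of -0.51, -0.46 and 0.72.

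Among targets, 18 of 20 ISRE-driven genes were higher in LP4 and 0 lower, with a median log2 ratio of 2.47. *Ifit1* (5.67), *Cmpk2* (5.54), *Cxcl10* (5.52) and *Rsad2* (5.27) led them, and *Oas1a* (0.95) and *Oas3* (0.06) were within 2-fold. Of 16 genes linked to IRF1, 13 were higher and 0 lower, with a median of 3.26. *Nos2*, inducible nitric oxide synthase, had 0.392, 0.152 and 190 CPM, and *Gbp5* (5.21), *Irgm2* (5.06) and *Il15* (3.70) came next. Of the IRF5-linked cytokines, 2 had at least 10 CPM, and *Il6* was higher (4.50) while *Tnf* was lower (-1.58). Of the IRF4-linked genes, 2 had that level, and *Kdm6b* was lower (-1.11) and *Mrc1* within 2-fold (0.48). Of 6 IRF8-linked genes, 1 was higher, *Il18* (1.24), and 1 lower, *Klf4* (-2.18). IRF activity was not measured.

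**Figure D3:**
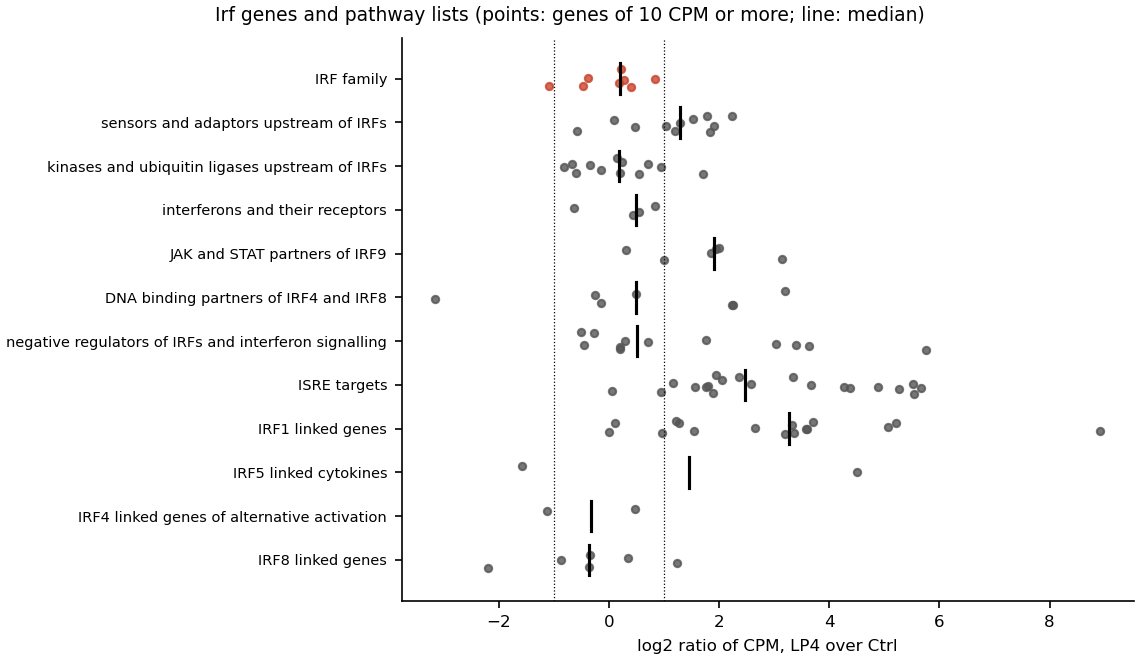
Log2 ratio of CPM, LP4 over Ctrl, for the 8 IRF genes (red) and for the genes of each pathway list with at least 10 CPM in 1 library (grey), with the median of each list as a black line and 2-fold as dotted lines. The IRFs lie between -1.09 and 0.84, and the ISRE targets have a median of 2.47.

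To see how the IRFs varied between cells, 2000 UMIs were drawn from each cell, leaving 5949 Ctrl, 5052 LP1 and 4625 LP4 cells after 122, 13 and 45 shallower ones were set aside. *Irf1* was seen in 27.3% of Ctrl cells (exact binomial 95% interval 26.2 to 28.5), 24.9% of LP1 cells and 30.9% of LP4 cells (29.6 to 32.3). *Irf2* was seen in 18.5% (17.5 to 19.5), 13.9% and 28.4% (27.1 to 29.8). *Irf7* was seen in 16.0%, 12.3% and 22.9%, *Irf5* in 19.7%, 25.8% and 23.6%, and *Irf8* in 24.8%, 26.4% and 16.1%. The shares followed the order of the CPM for each of these genes. In this draw of UMIs the number of IRFs that moved by more than 10 percentage points between Ctrl and LP4 was 0, with *Irf2* just under the limit. With another random seed *Irf2* passed it. At 4000 UMIs the number was 3, with *Irf2* and *Irf7* up and *Irf8* down (41.0% to 26.4%). It was 5 without thinning, all up: *Irf1*, *Irf2*, *Irf5*, *Irf7* and *Irf9*. The share of all genes past this limit was not computed, so these counts have no background. Without thinning, *Irf2* was seen in 41.8% of Ctrl and 78.6% of LP4 cells, a comparison that depth affects.

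*Irf3*, *Irf4* and *Irf9* were seen in few thinned cells, 2.91%, 2.04% and 1.06% for *Irf3*, 1.97%, 2.57% and 1.69% for *Irf4*, and 5.83%, 4.02% and 7.01% for *Irf9*. The IRFs were set beside a cluster of 84 neutrophil-like cells, led by *Mpo* and *Elane*, of which 69 could be thinned (median 4542 UMIs before thinning). These cells are not known to be free of IRF mRNA. Those of Ctrl had 115 CPM of *Irf2* (59.3 to 200) and 105 CPM of *Irf8* (52.5 to 188). An interval below that holds a share therefore does not place that share at background. *Irf4* was seen in 0 of the 69, with a floor of 4.35% (3 counts) and an exact binomial upper limit of 5.21%. The *Irf4* shares of the libraries lie under both limits and are not read as expression in most cells. *Irf3* was seen in 4.35% (0.906 to 12.2) and *Irf9* in 5.80% (1.60 to 14.2) of the 69 cells, so neither is read per cell. *Irf1* was seen in 7.25% (2.39 to 16.1) and *Irf5* in 5.80% (1.60 to 14.2) of them, and their shares in the 3 libraries lie above these intervals. *Irf7* was seen in 7.25% (2.39 to 16.1), an interval that holds its shares in Ctrl and LP1. *Irf8* was seen in 10.1% (4.18 to 19.8), which holds its share in LP4, and *Irf2* in 13.0% (6.14 to 23.3), which holds its shares in Ctrl and LP1.

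The variance of UMIs over cells, divided by their mean, is 1 when only counting spreads them. In LP4 it was 1.81 for *Irf8*, the highest value of any IRF in any library, beside 1.06 in Ctrl and 1.09 in LP1. Fewer LP4 cells carried it, yet 1.25% of LP4 cells carried 3 or more *Irf8* UMIs, beside 0.403% in Ctrl and 0.812% in LP1, and the highest cell had 12 UMIs, beside 4 and 5. An even spread of the same UMIs would have put *Irf8* in 20.4% of LP4 cells rather than 16.1%. For *Irf7* the values were 1.58 (Ctrl), 1.49 (LP1) and 1.31 (LP4), so it was most uneven in Ctrl. For *Irf2* it was 1.06, 1.03 and 1.15. Pairs of IRFs were seen together about as often as their shares would give, with Spearman correlations across cells between -0.03 and 0.05 over all pairs and libraries, too weak in sparse counts to read.

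*Irf7* was higher in cells with more target RNA. Cells were sorted by their UMIs of the 20 ISRE target genes after thinning, a list that holds no IRF. In Ctrl, *Irf7* had 54.3 CPM in the 1978 cells with no target UMI (47.3 to 62.1), 86.1 CPM in those with 1 to 2, 167 CPM with 3 to 9, 500 CPM in the 154 cells with 10 to 29 (424 to 586) and 921 CPM in the 38 cells with at least 30 (718 to 1164). LP1 gave the same order, 29, 56.0, 157, 360 and 810 CPM. These target-rich cells were few and were present without *Bb*LP. In LP4, where 38.9% of cells had at least 30 target UMIs, *Irf7* went only from 76.9 CPM in cells with 3 to 9 (61.5 to 95) to 187 CPM in cells with at least 30 (173 to 202). The *Irf7* level of target-rich LP4 cells was thus below that of cells in the same groups of target UMIs in Ctrl and LP1. The groups are not alike in makeup, and the last has no upper limit. In the whole libraries *Rsad2* had 130 CPM in Ctrl and 4995 CPM in LP4, while *Oas3* had 116 and 121 CPM.

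In LP4, *Irf2* was higher along the same scale, from 92.1 CPM in cells with 3 to 9 target UMIs (75.2 to 112) to 166 CPM with 10 to 29 (154 to 178) and 229 CPM with at least 30 (213 to 245). *Irf1* went from 144 to 190 to 232 CPM. *Irf8* stood at 89.4 and 90.4 CPM in the first and second of these groups and at 153 CPM in the cells with at least 30 (140 to 166). *Irf5* went from 115 CPM (96.3 to 137) to 134 to 162 CPM (149 to 176), an order it did not follow in Ctrl or LP1. *Irf9* had 28.6, 34.8 and 41.2 CPM, with intervals that overlapped. *Irf1* and *Irf2* were also higher in the few target-rich cells of Ctrl and LP1. From cells with no target UMI to those with at least 30, *Irf1* went from 164 to 395 CPM in Ctrl (266 to 564). *Irf2* went from 98.8 to 263 CPM there (161 to 406). In LP1 they went from 147 to 362 CPM and from 77.6 to 190 CPM, but *Irf2* had 57.0 CPM in cells with 10 to 29. The Spearman correlation with target UMIs across cells was 0.22, 0.25 and 0.15 for *Irf7* in Ctrl, LP1 and LP4, 0.16 for *Irf2* and 0.11 for *Irf1* in LP4, and at most 0.09 for the other IRFs in any library. In Ctrl it was 0.03 for *Irf1*, 0.02 for *Irf2* and 0.05 for *Irf9*. The cells of a library share their handling and are not replicates, so these are descriptions. *Irf3* and *Irf4* had too few UMIs in these strata to be placed in an order.

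**Figure D4:**
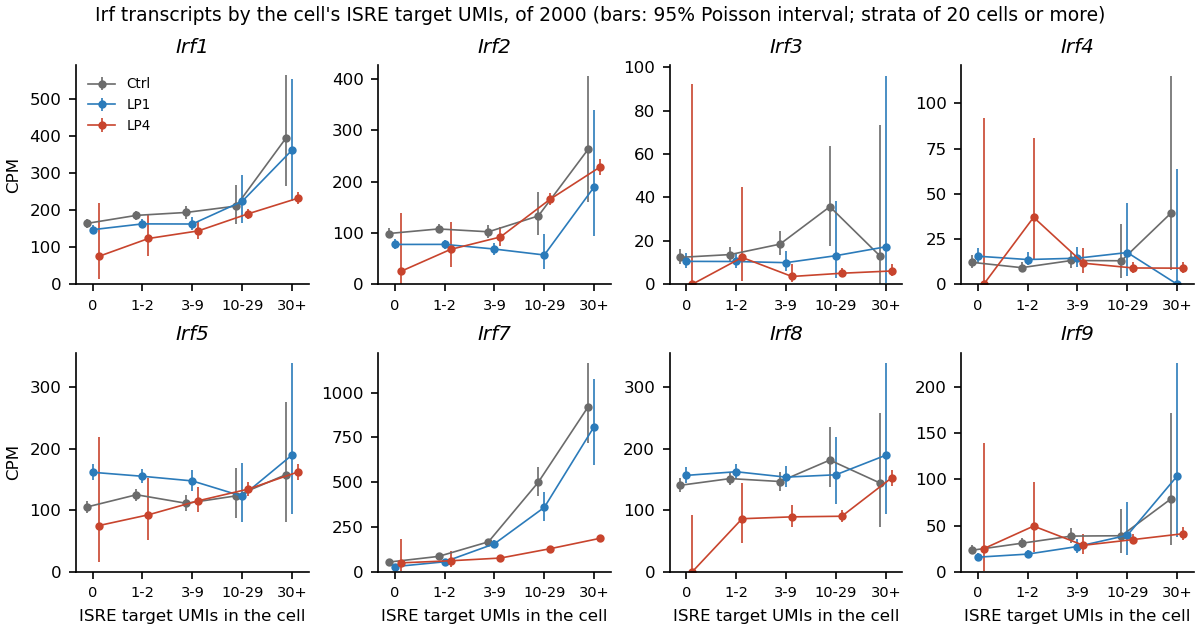
CPM of each IRF in cells grouped by their number of ISRE target UMIs out of 2000, for Ctrl, LP1 and LP4, with exact Poisson 95% intervals and groups of at least 20 cells. *Irf7* goes from 54.3 to 921 CPM in Ctrl and from 29 to 810 CPM in LP1, and reaches 187 CPM in LP4.

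The cells formed 9 clusters, made without the IRFs or the list genes and after each gene was centred within its library. A, B and C (4530, 3944 and 2574 cells) and F (959 cells) were macrophage-like, led by *Hal* and *Cxcl5* in A, *Mgll* and *Mmp12* in B, *Ccnd1* and *Mcm3* in C, and cycling genes in F. E (1071 cells) was dendritic cell-like by its MHC class II genes *H2-Eb1*, *H2-Aa*, *H2-Ab1* and *Cd74*, with *Gbp4* and *Il6* also among its leading genes. Of the 8 macrophage markers, 6 were seen in most of its cells, as many as in B, and other dendritic cell genes were scarce in the whole LP4 library, with 12 UMIs of *Flt3*, 63 of *Zbtb46*, 20 of *Ccr7* and 4 of *Cd209a*, so its name rests on the class II genes. It made up 2.60% of cells in Ctrl, 2.03% in LP1 and 17.3% in LP4. D, macrophage-like, made up 22.7% of Ctrl cells (1376) but 0.792% of LP4 cells (37) and was not compared, while A made up 26.6% of Ctrl and 35.8% of LP4 cells. The class II genes that name E differed less between the whole libraries than its share of cells. *Cd74* had 118 CPM in Ctrl and 110 in LP4, and *H2-Aa* 13.6 and 19.8 CPM. *H2-Ab1* had 11.3 and 13.4 CPM, and *H2-Eb1* 5.55 and 7.59 CPM. Whether a cluster, E above all, holds the same kind of cells in LP4 as in Ctrl was not tested. Over the 5 compared clusters and 8 genes, 36 of 40 pairs moved in the direction of the whole library for LP1 over Ctrl, 34 of 40 for LP4 over Ctrl and 39 of 40 for LP4 over LP1. The clusters are parts of the libraries they are set against, so a shared direction is partly built in. Pairs within counting error are counted too. The same count was not made over all genes, so these numbers are not read as a trait of the IRFs.

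*Irf2* had nearly the same ratio in each cluster, between 0.70 in B and 0.98 in E for LP4 over Ctrl. In Ctrl it had 97.0 CPM in A, 120 in B, 90.2 in C, 110 in E and 86.1 in F, and in LP4 185, 195, 166, 216 and 163 CPM. The LP4 values lay above all Ctrl values. Of clusters with too few cells to compare, D had an *Irf2* ratio of 0.62 (0.18 to 1.04). A small unnamed cluster led by *Ddit3* had -0.265 (-0.96 to 0.43), and the neutrophil-like cells had -0.32 (-1.40 to 0.83). *Irf3* was lower in each of the 5 clusters, and *Irf7* was higher, from 0.34 in A to 1.07 in E. *Irf5* was higher in 4 of them, and in E it did not differ beyond counting error, with a ratio of 0.03 (-0.25 to 0.31).

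*Irf4* was the IRF with the widest range over clusters. In E it had 42.8 CPM in Ctrl (29.3 to 60.5), 74.7 CPM in LP1 (57.7 to 95.3) and 18.5 CPM in LP4 (15.6 to 21.7), while the other clusters lay between 8.56 and 14.8 CPM in Ctrl, 10.9 and 17.5 in LP1, and 5.96 and 15.2 in LP4. It was seen in 9.55% of thinned E cells in Ctrl (5.45 to 15.3), in 8.74% in LP1 (4.07 to 15.9) and in 3.21% in LP4 (2.11 to 4.67). The higher CPM in LP1, from 65 UMIs in 103 cells, was thus not seen in the share of cells. E held 158 Ctrl cells and 810 LP4 cells, so whether the same kind of cell was compared there was not tested.

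*Irf8* parted between clusters in LP4. In A it went from 168 CPM in Ctrl to 172 in LP1 and 106 in LP4, in C from 134 to 152 to 75.1 CPM, and in F from 123 to 115 to 56.9 CPM. In E it had 135, 163 and 166 CPM. The log2 ratio of LP4 over Ctrl was -0.66 in A, -0.27 in B, -0.83 in C and -1.12 in F, but 0.30 in E (0.01 to 0.60). Without the cells of E, *Irf8* was lower in LP4 by a log2 ratio of -0.60 in the whole library, beside -0.47 with them. Among the 5 clusters compared, the highest in LP4 had 2.92 times the *Irf8* CPM of the lowest, against 1.37 times in Ctrl. Of clusters with too few cells to compare, D had an LP4 over Ctrl ratio of 0.34 (-0.05 to 0.70). The small unnamed cluster led by *Ddit3* had 0.14 (-0.45 to 0.74), and the neutrophil-like cells had -1.49 (-2.94 to -0.08). *Irf1* parted too, with ratios of 0.27 in A and 0.25 in B, -0.26 in C (-0.38 to -0.14), and -0.03 and -0.04 in E and F. Scaling by TMM, which adds 0.17 to each ratio, brings the interval of C to hold 0. The tests of these differences between clusters need replicate libraries and were not made.

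**Figure D5:**
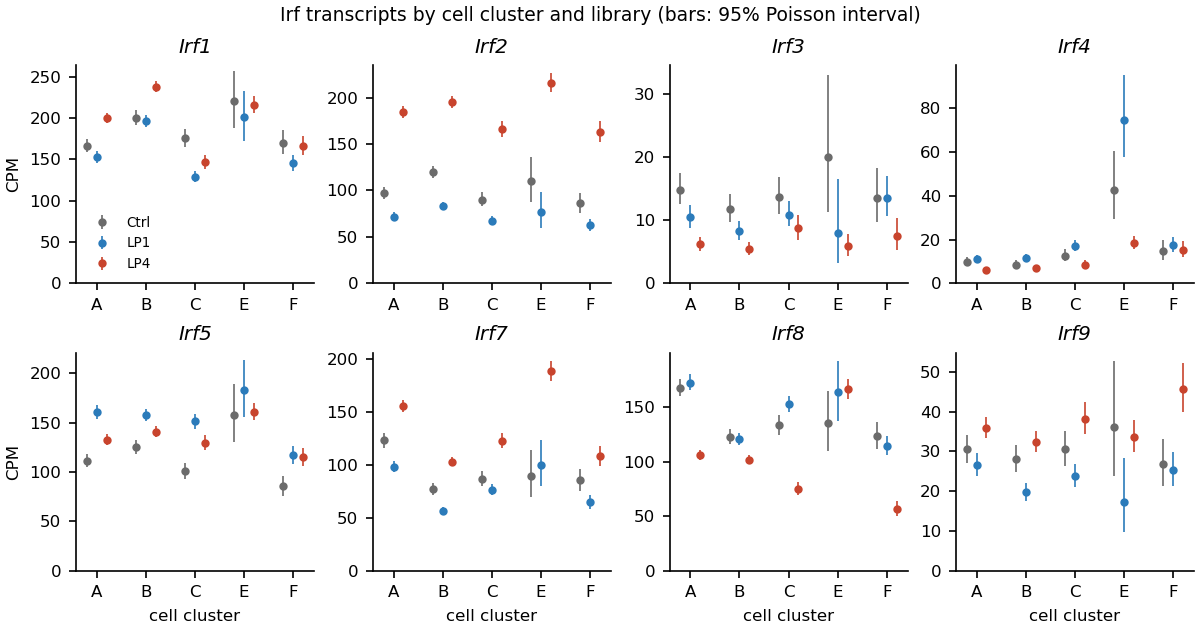
CPM of each IRF in the 5 clusters compared, by library, with exact Poisson 95% intervals. *Irf2* is higher in LP4 in every cluster, *Irf4* stands out in cluster E at 42.8 CPM in Ctrl and 74.7 CPM in LP1, and *Irf8* in LP4 spans 56.9 CPM in F to 166 CPM in E.

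The genes most like each IRF were sought among the 3789 genes that reached 50 CPM in any library, by Pearson's r of log2(CPM + 1) over the 15 points of 5 clusters and 3 libraries, which share their libraries and depth. *Irf3*, *Irf4* and *Irf9* were below that level and were left out. *Irf2* was most like *Znfx1*, an antiviral RNA helicase gene (r = 0.97), *Ndufa1* (0.96) and *Susd6* (0.96). *Irf7* was most like *Klf3* (0.94), *Mtmr14* (0.94) and *Ripk1* (0.93), *Irf1* like *F10* (0.90), *Csf2rb* (0.84) and *Mmp19* (0.83), *Irf5* like *Trappc4* (0.92), *Ndfip1* (0.90) and *Arpc1a* (0.87), and *Irf8* like *Lilr4b* (0.91), *Sept11* (0.89) and *Zfand3* (0.88).

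With the mean of each library removed, which leaves the differences between clusters alone, *Irf7* was most like *Lgals3bp* (0.95), *Klf3* (0.94) and *Rab1a* (0.94). *Irf2* then went with *Malt1* (0.95), *Srxn1* (0.94) and *Man2b1* (0.92), *Irf1* with *Gm2a* (0.92), *F10* (0.91) and *Met* (0.90), *Irf5* with *Ptprc* (0.96), *Psmb10* (0.95) and *Itch* (0.93), and *Irf8* with *Fez2* (0.93), *Clic4* (0.91) and *Lilr4b* (0.89). *Klf3*, *F10* and *Lilr4b* were among the 3 closest genes of their IRF by both measures. With 15 points and 3789 genes, values of this size are a description.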

How the data were processed

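RNA of single BMDMs was captured with a Chromium 3′ kit. The authors deposited raw UMI counts, not normalized, made with Cell Ranger 7.1.0 on mm10 per the submitters' processing notes. The paper's methods name an earlier version of Cell Ranger, and the difference was not resolved. Whether intronic reads were counted is not given in the sources used here.

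Counts were summed over kept cells and divided by all their UMIs (CPM). CPM has an exact Poisson interval, log2 ratios an exact conditional binomial interval and shares an exact binomial interval, all at 95% and for counting error only. A gene at 0 was given a floor of 3 counts. Past 2-fold means a log2 ratio of at least 1 or at most -1. With 1 library per condition no test was made. The IRFs and the gene lists were chosen with earlier results of these data known. Some genes, and the count of the JAK and STAT list, are not reported here. Named genes are the 8 IRFs, up to 4 genes per list past 2-fold with the highest ratio, the defining genes of a list by role, and the 3 genes most like each IRF of at least 50 CPM. *Trim30a* and the genes named for LP1 were named after their values were seen.

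Clusters came from 2000 variable genes that differed by less than 1.5 times between libraries, 30 principal components, 20 neighbours and Leiden clustering at 0.5, with seed 20, and those with at least 50 cells per library were compared. Scrublet called at most 0.0214% of cells, so it did not work here, and the 5% of cells with the highest score were left out as an alternative. The software was scanpy 1.11.5, leidenalg 0.10.2, scipy 1.17.1, numpy 2.4.6 and pandas 2.3.3 under Python 3.11.15, and edgeR 4.0.16 (TMM only) and DESeq2 1.42.0 (median of ratios only) under R 4.3.3. The ratio and thinning steps were tested on simulated data.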

Additional observations from a re-analysis of the deposited data

Results flagged for a closer look

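For the 4 values below, an IRF's ratio of LP4 over Ctrl lay above 0 in one cluster and below 0 in another, each beyond counting error by CPM, in single libraries. The differences were not tested, nor was whether a cluster, E above all, holds the same kind of cells in both libraries. *Irf8* had a log2 ratio of 0.30 in the dendritic cell-like cluster E (95% interval 0.01 to 0.60) and of -1.12 in the cycling macrophage-like cluster F (-1.34 to -0.89). *Irf1* had a log2 ratio of 0.27 in cluster A (0.18 to 0.35) and of -0.26 in cluster C (-0.38 to -0.14). Scaling by TMM adds 0.17 and the median of ratios 0.21 to each ratio, after which the interval of *Irf1* in C holds 0, while the other 3 values keep their side of 0.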

How the results depend on the processing

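No alternative that was run turned the direction of an IRF's ratio in any pair of libraries, and each kept a scaling to UMIs. Of 24 such ratios, the one that moved furthest was *Irf3* for LP4 over Ctrl, -1.45 with cells thinned to 2000 UMIs, and the value nearest to 0 was *Irf8* for LP1 over Ctrl, 0.0013 without mitochondrial and ribosomal protein genes. UMIs per 1000 cells, which take no account of depth, were not among the alternatives. By that count every IRF was higher in LP1 and in LP4 than in Ctrl, so the direction of the lower ratios holds relative to depth only. *Irf8*, for example, had 853 (Ctrl), 1514 (LP1) and 1377 (LP4). Under TMM and under the median of ratios, the IRFs past 2-fold for LP4 over Ctrl were 1 higher and 0 lower. At 1.5-fold in place of 2-fold they were 1 higher for LP4 over Ctrl, and 2 higher and 2 lower for LP4 over LP1. Among all genes with at least 1 UMI, the shares past 2-fold for LP1 over Ctrl were 1.51% higher and 4.59% lower. IRFs whose share of cells moved by over 10 percentage points in either direction numbered 3 with thinning to 4000 UMIs and 5 without thinning. The number was 1 with another random seed, where *Irf2* passed the limit. The sets differ, as given above, and no share of all genes stands beside these counts. Pairs of gene and cluster in the direction of the library were 64 of 72 at a Leiden resolution of 0.8 and 20 of 24 without centring. Both settings change the number of clusters, and again no count over all genes was made. Leaving out cluster D or E was chosen after seeing the data. Without E, the LP4 over Ctrl ratio was 0.31 for *Irf7* and -0.60 for *Irf8*. Without D, *Irf7* had 0.49. No paired analysis was possible because each condition has 1 library. Depth limits *Irf3* and *Irf4*, with 395 to 764 UMIs per library. For LP4 over Ctrl, the mean of cell shares, the doublet score, the mitochondrial limit and the most UMI-rich cells left both counts of IRFs past 2-fold as they were.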

Other observations

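An unnamed cluster of 203 cells with a median of 2408 UMIs, led by the stress gene *Ddit3*, had a higher *Irf1* CPM in LP4 than the 5 clusters compared. Its 76 LP4 cells had 156 *Irf1* UMIs or 460 CPM (exact Poisson 95% interval 391 to 538), beside 112 CPM in its Ctrl cells and 103 CPM in its LP1 cells. At 2000 UMIs per cell, *Irf1* was seen in 37.8% of the 37 cells deep enough (22.5 to 55.2), beside 36.7% in cluster B. The same cells had 112 CPM of *Irf2* in LP4 (79.3 to 154), below the 163 to 216 CPM of the clusters compared. In Ctrl the cells of this cluster had 135 CPM of *Irf2* (94.3 to 186). It had under 50 cells in LP1 and was left out of the comparisons, and the cluster was singled out after its values were seen.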
